A study of Mus musculus with 3 samples.

Results

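The periocular mesenchyme transcription factors described here are 9 genes, Foxc1, Foxc2, Pitx1, Lmx1b, Tfap2b, Twist1, Twist2, Zeb1 and Zeb2, taken by exact symbol from the deposited table, which held all 9 among its 21760 genes. RNA was sequenced from mouse cornea in 3 libraries with 1 library per group. The first group received PNU-282987, a compound that activates the α7 type of nicotinic acetylcholine receptor, as eyedrops given 3 times a day. The second had the lacrimal gland, which makes the watery part of tears, removed as a surgical model of dry eye (excision). The third had a sham incision that spared the glands. The labels do not say whether the mice given PNU-282987 had also lost the gland, nor the strain, age, time after surgery or number of corneas in a library. The question behind the study was the role of this receptor in dry eye disease.

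Periocular mesenchyme is the tissue, mostly of neural crest origin, that surrounds the developing eye and forms the corneal stroma, the corneal endothelium, the iris stroma and the drainage angle. Its transcription factors bind DNA through forkhead (Foxc1, Foxc2), homeodomain (Pitx1, Lmx1b), AP-2 (Tfap2b), basic helix-loop-helix (Twist1, Twist2) and zinc finger (Zeb1, Zeb2) domains, and in human several cause disorders of the front of the eye when mutated. In the adult cornea most of the tissue's RNA comes from the surface epithelium, which is not of mesenchymal origin.

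Total counts were 39616004, 37692972 and 37703843 in the PNU-282987, excision and sham libraries. A gene with no read need not be absent, and in ratios its count of 0 was set to 3 counts. That is 0.0773, 0.0808 and 0.0768 scaled CPM (counts scaled to library size) in the same order. Levels are CPM after scaling by trimmed mean of M-values (TMM), and 95% intervals allow for counting error alone, with each read taken as an independent molecule. Reads that carry no molecular identifier need not be independent, so the intervals may be too narrow. With 1 library a group there was no spread between animals to set a difference against, no test was made, and each ratio compares libraries. A gene was measured when it had at least 20 counts in at least 1 library, and called higher or lower when the libraries differed 2-fold or more and the interval did not hold equal levels. Markers of all 3 corneal layers were present: Krt12, the keratin of corneal epithelium, had 1634592, 1135144 and 1541851 counts in PNU-282987, excision and sham. Kera, the keratocyte proteoglycan keratocan, had 3716, 3217 and 7395 counts in the same order, and Col8a2, a collagen of the endothelium's basement membrane, had 7930, 2555 and 12972. The libraries also differed in tissue from beyond the cornea: the summed level of 18 lens markers was 586 CPM in PNU-282987, 22.9 CPM in excision and 677 CPM in sham.

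Of the called factors Pitx1, Tfap2b and Lmx1b, the promoters of Tfap2b and Lmx1b are shown here, with that of Foxc1, the factor with the most counts, beside them. These are the 250 bases before the start site, 5′ to 3′ on the gene's own strand, from RefSeq (build GRCm38.p6), which held an entry for 6 of the 9 genes that was used here. Capitals mark matches to the recognition letters of the families themselves, searched on both strands: CANNTG (E-box, read by Twist factors), CACCTG (the E-box form read by ZEB and Snail factors, which is contained in the first), GCCNNNGGC (AP-2), TAAACA (forkhead), TAATCC (bicoid-type homeodomain, as in Pitx1) and TAATTA (LIM homeodomain, as in Lmx1b). The Foxc1 window lies at chr13:31806396-31806645 on the plus strand, the Lmx1b window at chr2:33641099-33641348 on the minus strand and the Tfap2b window at chr1:19211804-19212053 on the plus strand.
Foxc1: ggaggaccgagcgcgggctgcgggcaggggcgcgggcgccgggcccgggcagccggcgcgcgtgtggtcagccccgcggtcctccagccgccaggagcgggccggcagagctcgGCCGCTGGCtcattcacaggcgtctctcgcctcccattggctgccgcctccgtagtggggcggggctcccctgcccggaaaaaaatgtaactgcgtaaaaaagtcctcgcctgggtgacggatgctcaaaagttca
Lmx1b: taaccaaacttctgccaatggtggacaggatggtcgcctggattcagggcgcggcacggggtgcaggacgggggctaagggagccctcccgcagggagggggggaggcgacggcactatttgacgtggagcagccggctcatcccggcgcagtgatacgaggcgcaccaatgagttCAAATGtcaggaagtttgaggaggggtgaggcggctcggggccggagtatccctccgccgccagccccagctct
Tfap2b: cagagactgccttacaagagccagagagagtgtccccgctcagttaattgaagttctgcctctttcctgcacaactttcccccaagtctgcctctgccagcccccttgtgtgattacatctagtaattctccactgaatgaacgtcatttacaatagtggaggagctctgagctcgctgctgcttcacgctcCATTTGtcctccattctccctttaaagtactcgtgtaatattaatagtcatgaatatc

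The Foxc1 window held 1 AP-2 match, 136 to 128 bases before the start site, and the Lmx1b and Tfap2b windows each held 1 E-box, 74 to 69 and 58 to 53 bases before it. E-boxes were found in 66.2% of all 32817 such windows and AP-2 matches in 13.7%, so the first is a common feature. Guanine and cytosine made up 70.8% of the Foxc1 window and 65.2% of the Lmx1b window, but 46.4% of the Tfap2b window, against a median of 52.4% over all windows. A match describes these letters only and is not a measured binding site.

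Ordered by level per kilobase of annotated exon (GENCODE M21, whose exons may differ from those the authors counted), Foxc1 led in each of the 3 libraries, at 11.8, 16.3 and 9.91 CPM per kilobase in PNU-282987, excision and sham. Twist1 came second throughout, at 3.72, 4.82 and 5.96 CPM per kilobase in the same order, although its interval met that of Tfap2b in the PNU-282987 library. Foxc1 and Foxc2 are close relatives with overlapping roles in mouse development, yet Foxc2 lay near the bottom, at 0.132, 0.0692 and 0.0564 CPM per kilobase. Tfap2b and Lmx1b followed, in an order that changed. In PNU-282987 Tfap2b, at 3.58 CPM per kilobase, stood clear of Lmx1b, at 1.25. In excision the same genes stood at 1.39 and 1.48 CPM per kilobase and in sham at 3.49 and 3.04, both times with intervals that met. Zeb2 was last in all 3 libraries, at 0.0336, 0.0203 and 0.0347 CPM per kilobase, over a long annotated transcript, although its interval met that of Foxc2 in excision and in sham. Foxc1 alone supplied 62.7% of the 4265 counts on the 9 genes in PNU-282987, 77.0% of 4601 in excision and 52.6% of 4298 in sham.

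**Figure D1:**
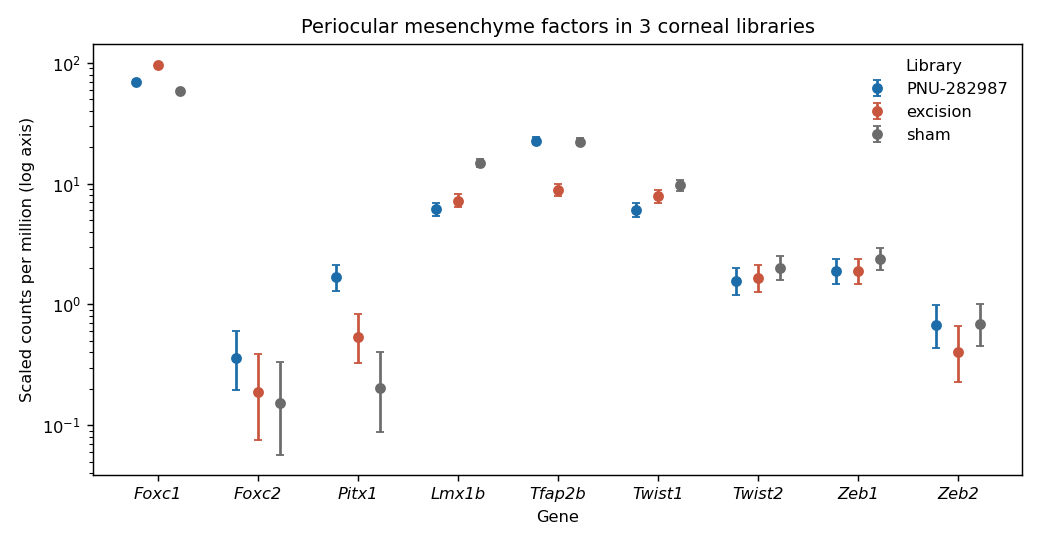
Scaled CPM (log axis) of the 9 factors in the PNU-282987, excision and sham libraries, 1 point per library with its 95% counting interval. Foxc1 sits highest at 68.8, 95.4 and 57.9 CPM, Tfap2b is lowest in excision (22.7, 8.84 and 22.1 CPM), and Pitx1 is highest in PNU-282987 (1.67, 0.539 and 0.205 CPM).

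In excision against sham, 2 of the 8 measured factors were lower (Tfap2b and Lmx1b) and 1 was higher (Pitx1). Over all 14180 measured genes, 5.48% were lower and 4.01% higher by the same rule. The median log2 ratio of the 8 factors was -0.32, and that of all measured genes was -0.003. Foxc2, with 14, 7 and 6 counts in PNU-282987, excision and sham, was under the minimum in each library. Its ratio of excision to sham was 1.23 with an interval of 0.353 to 4.42, so a difference was not detectable at this depth.

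Tfap2b encodes AP-2β, which mouse neural crest needs to form a normal corneal endothelium. It had 881 counts in PNU-282987, 328 in excision and 865 in sham (22.7, 8.84 and 22.1 CPM). Excision was the low library: the gene was 2.51-fold lower in excision than in sham (95% interval 2.205 to 2.85) and 2.57-fold higher in PNU-282987 than in excision (2.26 to 2.92). PNU-282987 over sham was 1.02, with an interval of 0.932 to 1.13. The corneal endothelial list was also lowest in excision. Of its 12 genes 9 were lower in excision than in sham and 1 was higher, with a median log2 ratio of -2.08, and 7 were higher and none lower in PNU-282987 than in excision (median 1.58). Its summed level was 1219, 794 and 1623 CPM in PNU-282987, excision and sham, and no member was at 0. In bulk tissue, fewer cells of a type and less RNA per cell cannot be told apart, and the cell source of the Tfap2b difference was not measured. Retina markers were lowest in excision as well: all 8 measured were lower in excision than in sham (median log2 ratio -2.04) and all 8 were higher in PNU-282987 than in excision (2.83), at summed levels of 30.9, 5.33 and 18.8 CPM in PNU-282987, excision and sham. The part of lens or retina transcript in the Tfap2b difference was not tested.

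Set against its own family, Tfap2b also differed without any scaling between libraries. AP-2 proteins bind as dimers to the same kind of site, and the family members compared here were Tfap2a, Tfap2b and Tfap2c. Tfap2b took 19.5% of the counts on these genes in PNU-282987 (exact Clopper-Pearson interval 18.3 to 20.7), 7.05% in excision (6.33 to 7.82) and 18.4% in sham (17.3 to 19.6). Excision lay well below the other libraries, whose intervals met. Tfap2a, an AP-2 gene that surface ectoderm shares with neural crest, had 2099, 2861 and 2251 counts, and was 1.34-fold higher in excision than in sham (1.26 to 1.41), under 2-fold. Tfap2c had 1542, 1465 and 1574 counts, with a ratio of excision to sham of 0.979 (0.911 to 1.05).

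**Figure D2:**
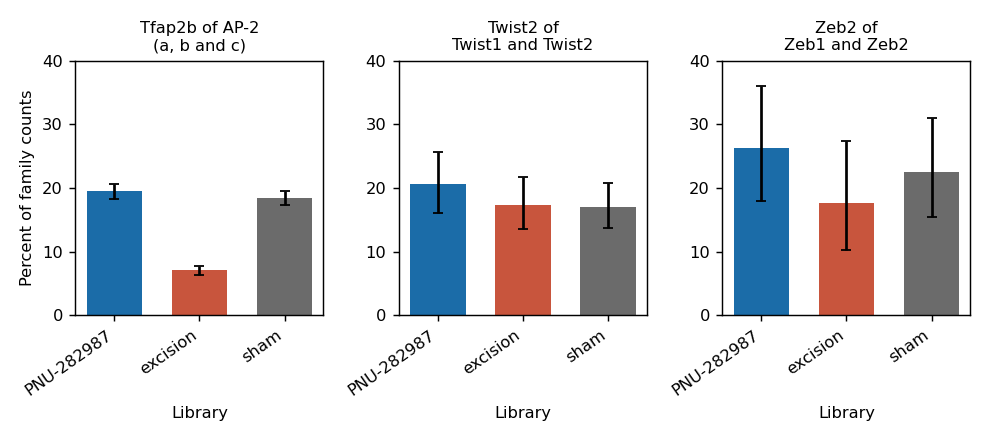
Share of a family's counts (percent) taken by 1 member in the PNU-282987, excision and sham libraries; bars are shares and lines their exact 95% binomial intervals. Tfap2b makes up 19.5%, 7.05% and 18.4% of AP-2 counts, and the Twist2 and Zeb2 shares have intervals that meet across the libraries.

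Lmx1b is a LIM homeodomain factor required for the front of the mouse eye, the kidney filter and the dorsal limb, and its human mutations cause nail-patella syndrome, which can include glaucoma. It had 237 counts in PNU-282987, 268 in excision and 580 in sham (6.10, 7.22 and 14.9 CPM). Here sham was the high library. Lmx1b was 2.43-fold lower in PNU-282987 than in sham (2.09 to 2.84) and 2.06-fold lower in excision than in sham (1.78 to 2.39), whereas PNU-282987 over excision was 0.845 with an interval of 0.707 to 1.01. The gene whose pair of ratios lay nearest to that of Lmx1b, among all list genes with a count in every library, was Kera, at a log2 distance of 0.31, followed by Col5a1, a fibril collagen of the stroma (0.45), and the pigment cell gene Dct (0.49).

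Keratocyte markers were lower beside it. Of 20 measured genes of that list, 7 were lower and 1 higher in excision than in sham (median log2 ratio -0.64), and 1 was lower and none higher in PNU-282987 than in sham (median -0.57). The list's summed level was 1614, 1526 and 2419 CPM in PNU-282987, excision and sham, with no member at 0. Per 1000 keratocyte counts, Lmx1b had 3.78 counts in PNU-282987, 4.73 in excision and 6.14 in sham. Its ratios to sham were 0.616 and 0.771, so on that footing neither difference reached 2-fold. Dividing by a list that is itself lower than in sham raises every gene. The median log2 ratio of all genes to sham became 0.66 in excision and 0.58 in PNU-282987. Other lists were highest in sham too. Red blood cell markers summed to 9.61, 17.2 and 71.8 CPM in PNU-282987, excision and sham, with 4 of 5 lower than sham in each comparison. Of 3 measured pigment cell markers, 2 were lower in PNU-282987 than in sham (median log2 ratio -1.29) and 1 in excision (-0.55). The cell source of the Lmx1b difference was not measured, and the part of blood or pigment cells in it was not tested. Tfap2b had 14.1, 5.79 and 9.16 per 1000 keratocyte counts, and its ratio of excision to sham became 0.632, also under 2-fold. That of PNU-282987 to excision was 2.43 on this footing. Per 1000 corneal endothelial counts Tfap2b had 18.6, 11.1 and 13.6 counts in PNU-282987, excision and sham, and its ratios of 0.815 for excision to sham and 1.67 for PNU-282987 to excision were both under 2-fold. Lmx1b had 5.01, 9.09 and 9.15 per 1000 endothelial counts, ratios to sham of 0.547 in PNU-282987 and 0.994 in excision. A few genes led the endothelial sum: in excision Tjp1, Aqp1 and Alcam had 319, 215 and 111 of its 794 CPM. Tjp1 had less in sham, at 237 CPM. The sum was 2.04-fold lower in excision than in sham, while the list's median log2 ratio was -2.08. Ratios on the endothelial footing therefore depend on the genes that lead the sum.

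Foxc1, whose human mutations cause Axenfeld-Rieger anomalies of the anterior eye and which keeps the mouse cornea free of vessels, had 2673 counts in PNU-282987, 3541 in excision and 2262 in sham (68.8, 95.4 and 57.9 CPM). It was highest in the library where Tfap2b was lowest. The ratio of excision to sham was 1.65 (1.56 to 1.74), larger than that of 93.0% of measured genes but under 2-fold, and that of PNU-282987 to sham was 1.19 (1.12 to 1.26). PNU-282987 was 1.39-fold lower than excision (1.32 to 1.46). The stromal and endothelial list medians lay on the other side of 0. The nearest list genes by pair of ratios were Klf5, a factor of corneal epithelium (log2 distance 0.16), Adgre1, a macrophage gene on few counts (0.21), and St14, an epithelial protease (0.24). Per 1000 keratocyte counts Foxc1 had 42.7, 62.5 and 23.9 counts in PNU-282987, excision and sham. Its ratio of excision to sham was 2.61 (log2 1.38), where the median log2 ratio of all genes on that footing was 0.66. Against the counts of the corneal epithelial list, the Foxc1 ratio of excision to sham was 1.72 and that of PNU-282987 to sham 1.05, both under 2-fold. Which cells of the cornea held the Foxc1 transcript was not measured.

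**Figure D3:**
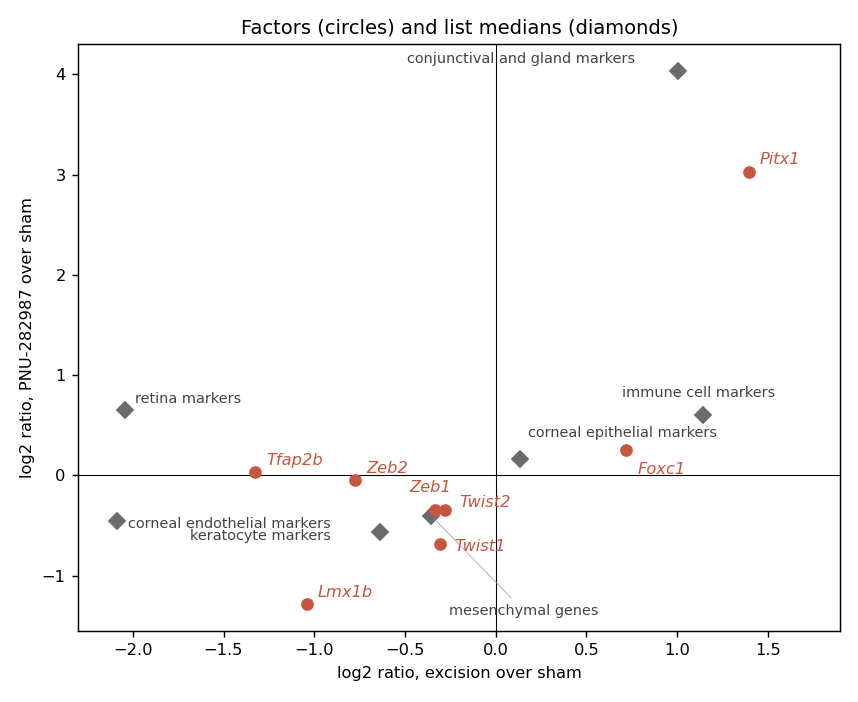
Log2 ratio of excision over sham (x axis) and of PNU-282987 over sham (y axis) for the 8 measured factors (circles) and the medians of 7 gene lists (diamonds); both axes share the sham library. Lmx1b lies lower left (-1.04 and -1.28), Tfap2b left at zero height (-1.33 and 0.03), Foxc1 right of the origin (0.72 and 0.25) and Pitx1 at the top right (1.40 and 3.03), on the side of the conjunctival and gland median (1.002 and 4.04). That median covers the 8 of 10 genes with a ratio on the x axis and all 10 on the y axis.

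In PNU-282987 against sham, 1 of the 8 measured factors was lower (Lmx1b) and 1 was higher (Pitx1), where 4.96% of all measured genes were lower and 2.58% higher. The median log2 ratio of the 8 was -0.19, beside 0.00 for all measured genes. Pitx1, a homeodomain factor that specifies the hindlimb and takes part in pituitary development, had 65 counts in PNU-282987, 20 in excision and 8 in sham (1.67, 0.539 and 0.205 CPM). It was 8.17-fold higher in PNU-282987 than in sham (3.91 to 19.7) and 2.63-fold higher in excision than in sham (1.11 to 6.90). The interval of the second barely cleared equal levels. Pitx1 reached the minimum of 20 counts through the libraries where it was high, not through sham.

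Conjunctival and gland transcripts were high in the library with the most Pitx1. All 10 measured genes of that list were higher in PNU-282987 than in sham, with a median log2 ratio of 4.04, and 6 were higher in PNU-282987 than in excision (median 4.10). The list's summed level was 5821, 3773 and 2245 CPM in PNU-282987, excision and sham. Its members differed among themselves. The gel-forming mucin gene Muc5b had 676, 0 and 1 counts and the secretoglobin gene Scgb2b2 had 768, 0 and 0, whereas the keratin gene Krt4 had 21643, 14142 and 3013 and Agr2, a gene of secretory cells, had 1817, 133 and 49. In excision against sham 4 of the 10 were higher and 1 lower. The list genes nearest to Pitx1 by pair of ratios were Car12, a carbonic anhydrase (log2 distance 0.49, with 276, 87 and 27 counts), Six2, a homeodomain factor (0.78), and Krt4, a keratin of conjunctiva (0.93). Counting intervals of Pitx1 were wider than these distances, at log2 0.15 to 2.79 for excision over sham and 1.97 to 4.30 for PNU-282987 over sham. The order of its nearest genes is therefore not resolved. Car12 belongs to the corneal endothelial list and was its 1 gene called higher in PNU-282987 than in sham. The part of conjunctival or gland tissue in the Pitx1 counts was not tested.

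In PNU-282987 against excision, 2 of the 8 measured factors were higher (Tfap2b and Pitx1) and none was lower, where 3.9% of all measured genes were higher and 5.62% lower. The median log2 ratio of the 8 was -0.03, against 0.01 for all measured genes. Pitx1 was 3.11-fold higher in PNU-282987 than in excision (1.86 to 5.42). This comparison shares a library with each of the others, so the calls on a gene are not separate evidence.

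**Figure D4:**
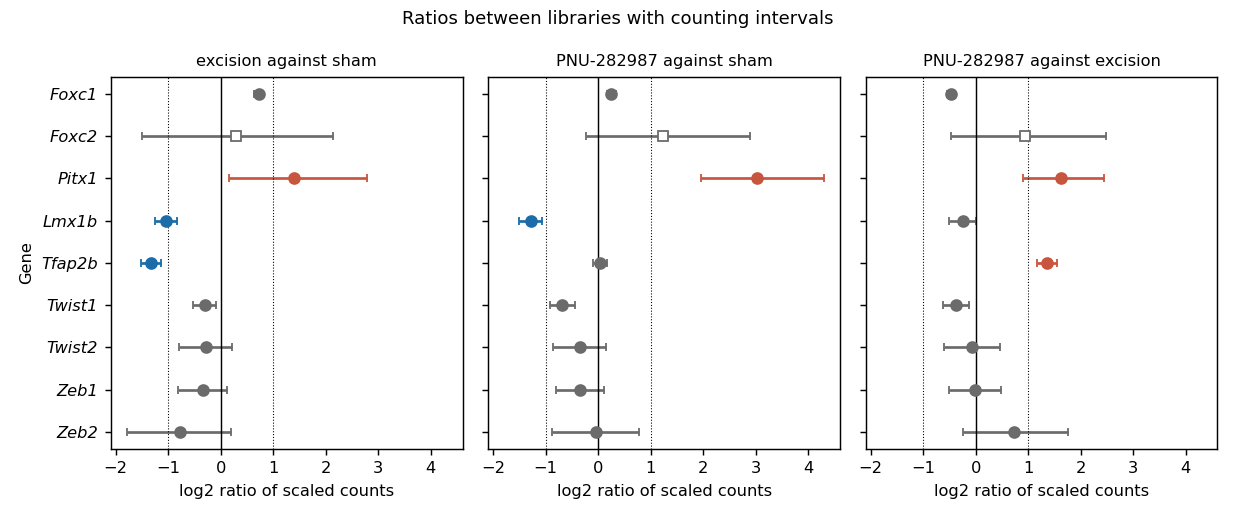
Log2 ratios of scaled counts for the 9 factors in excision against sham, PNU-282987 against sham and PNU-282987 against excision, with 95% counting intervals; red marks genes called higher, blue genes called lower, grey the rest, and an open square Foxc2, under the minimum count. Dotted lines mark 2-fold: 7 of the 27 ratios pass it with an interval that excludes 0, and the ratios of the Twist and Zeb genes stay inside it in all 3 panels. The Zeb2 interval crosses it in excision against sham (down to -1.79) and in PNU-282987 against excision (up to 1.75).

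The Twist and Zeb genes, which in embryos and tumours drive epithelial cells towards a mesenchymal state, all had ratios within 2-fold. Twist1, a basic helix-loop-helix factor mutated in human craniosynostosis, had 235 counts in PNU-282987, 291 in excision and 379 in sham (6.05, 7.84 and 9.70 CPM). Sham was the highest of the 3 and PNU-282987 the lowest: Twist1 was 1.60-fold lower in PNU-282987 than in sham (1.36 to 1.89) and 1.24-fold lower in excision than in sham (1.06 to 1.45). PNU-282987 was in turn 1.30-fold lower than excision (1.09 to 1.54). Twist2, a mesenchymal factor of dermis whose loss thins the mouse corneal stroma, had 61, 61 and 78 counts in PNU-282987, excision and sham (1.57, 1.64 and 1.997 CPM). Its ratios to sham were 0.786 in PNU-282987 (0.553 to 1.11) and 0.823 in excision (0.579 to 1.17), with intervals that held equal levels. Twist2 made up 20.6%, 17.3% and 17.1% of the counts on the Twist genes in PNU-282987, excision and sham, with intervals that met.

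Zeb1, a repressor of the E-cadherin gene whose human mutations cause posterior polymorphous corneal dystrophy, had 73 counts in PNU-282987, 70 in excision and 93 in sham (1.88, 1.89 and 2.38 CPM). Its ratio to sham was 0.789 in PNU-282987 (0.573 to 1.08) and 0.792 in excision (0.572 to 1.09). Zeb2, its relative, mutated in human Mowat-Wilson syndrome and also expressed in macrophages, had 26, 15 and 27 counts (0.670, 0.404 and 0.691 CPM). The lowest value fell in excision, at a ratio to sham of 0.584, but the interval ran from 0.289 to 1.14, and a difference was not detectable at this depth. Immune cell markers went the other way: 4 of 7 measured were higher in excision than in sham and none lower. Their summed level was 216, 343 and 198 CPM in PNU-282987, excision and sham, of which Itgam alone held 179, 253 and 176 CPM. The leukocyte gene Ptprc had 17, 36 and 6 counts. Zeb2os, which overlaps Zeb2 on the opposite strand, had 6, 7 and 0 counts. Whether strand was used in counting is not given in the sources used here; without it, reads of this pair cannot be told apart.

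The nearest list genes to Twist2 and Zeb1 were the same ones. Col6a1, Col6a2 (collagen VI of the stroma) and Pdgfra, a receptor gene of mesenchymal cells, lay within a log2 distance of 0.13 of Twist2 and of 0.09 of Zeb1. Counting intervals were far wider: for excision over sham, log2 -0.79 to 0.22 for Twist2 and -0.81 to 0.13 for Zeb1. The order of nearest genes is therefore not resolved at this depth. Twist1 lay nearest to Vim, the mesenchymal intermediate filament gene (0.13), then Tcf4, which encodes a dimer partner of Twist proteins (0.21), and Prrx2 (0.21). Zeb2 was nearest to Slc16a1, a lactate transporter gene (0.28), then to the epithelial gene Epcam and the lens marker Bfsp1 (both 0.32). Intervals for excision over sham ran from log2 -0.53 to -0.08 for Twist1 and from -1.79 to 0.19 for Zeb2, so neither order is resolved. With 2 ratios that share the sham library, such nearness is a description of 3 libraries. Per 1000 keratocyte counts the Twist and Zeb1 values leaned the other way for excision over sham, at 1.28 for Twist1, 1.30 for Twist2 and 1.25 for Zeb1. As log2 ratios these were 0.36, 0.38 and 0.33, below the median of 0.66 over all genes on that footing. For PNU-282987 over sham the ratios were 0.935 for Twist1, 1.18 for Twist2 and 1.18 for Zeb1. The median log2 ratio of all genes was then 0.58.

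Of 21 epithelial genes that ZEB factors repress in other epithelia, none was called in any of the 3 comparisons, and the median log2 ratio was 0.22 in excision and 0.19 in PNU-282987 against sham. Cdh1, the E-cadherin gene, had 7000, 8796 and 6526 counts in PNU-282987, excision and sham, and was 1.42-fold higher in excision than in sham (1.37 to 1.46). Of 10 mesenchymal genes 1 was called against sham: Col3a1, an interstitial collagen gene, was 2.42-fold lower in PNU-282987 (99 and 241 counts), and the list medians were -0.40 in PNU-282987 and -0.35 in excision. None of 13 measured partners and inhibitors (E proteins, Id proteins, LIM cofactors and CtBP corepressors) was called in any comparison, with medians between -0.08 and 0.13. Tcf4 in that list had 467, 473 and 684 counts in PNU-282987, excision and sham, 1.46-fold and 1.37-fold lower than sham.

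The other neural crest and periocular factors went both ways. Of the 28 genes of this list that were analysed, 15 were measured. In excision against sham 3 were higher and 2 lower (median log2 ratio 0.18), in PNU-282987 against sham 2 were higher and 1 lower (0.14), and in PNU-282987 against excision 2 were higher and 1 lower (0.03). Prrx1, a homeodomain factor of mesenchyme, had 498 counts in PNU-282987, 228 in excision and 549 in sham, and was the list gene nearest to Tfap2b (log2 distance 0.21). The lens marker Bfsp1 and the muscle marker Myh11 lay almost as near to Tfap2b, both at 0.25. Prrx1 was 2.29-fold lower in excision than in sham (1.96 to 2.68). Msx1, a homeodomain factor of neural crest, had 19, 2 and 26 counts, lowest in excision as well. Osr2, an odd-skipped related zinc finger factor, was higher than sham in both other libraries, at 1103, 842 and 325 counts, and so was Six2, at 39, 24 and 8.

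The Snail genes, which read the same CACCTG box as the Zeb factors, differed between themselves. Snai1 had 2 counts in PNU-282987, 32 in excision and 14 in sham, and was 2.40-fold higher in excision than in sham (1.25 to 4.88) and 6.96-fold lower in PNU-282987 than in sham (1.60 to 63.1), on few counts. Snai2 had 371, 348 and 338 counts, with ratios to sham of 1.10 (0.950 to 1.28) in PNU-282987 and 1.08 (0.930 to 1.26) in excision. Sox10 and Foxd3, which mark early neural crest and glia, had at most 4 counts in a library.

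Retinoic acid from the embryonic eye directs periocular mesenchyme through nuclear receptors. Of 15 measured genes of this pathway 2 were higher and none lower in excision than in sham (median log2 ratio 0.15), 1 was higher and none lower in PNU-282987 than in sham (0.40), and 2 were higher and 1 lower in PNU-282987 than in excision (0.07). Rarb, a receptor gene that retinoic acid itself induces, had 95 counts in PNU-282987, 35 in excision and 65 in sham. Cyp26b1, which encodes an enzyme that breaks retinoic acid down, had 6245, 2862 and 4752 counts. Both were lowest in excision and were called between PNU-282987 and excision, at 2.59-fold (1.74 to 3.94) and 2.09-fold (1.995 to 2.18). Aldh1a2, which encodes an enzyme that makes retinoic acid, had 5, 26 and 1 counts, and Stra6, a gene for retinol uptake, had 16, 20 and 4.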

How the data were processed

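Per the labels' protocols, TRIzol was used for extraction and the VAHTS Universal V6 kit for library preparation. The authors deposited whole-number counts of reads per gene, used here as deposited, and HTSeq and R 3.2.0 appear in the submitters' processing notes. The aligner, genome build, annotation and strand setting were not given in the sources used here. Columns were matched to samples by title and to groups by treatment.

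TMM factors (0.980, 0.985 and 1.04 for PNU-282987, excision and sham) came from edgeR 4.0.16 in R 4.3.3, and DESeq2 1.42.0 gave alternative size factors. Ratios, exact conditional binomial (Clopper-Pearson) intervals and exact Poisson intervals of levels were computed over the whole table in Python 3.11.15 with SciPy 1.17.1. The code for ratios and their intervals was run on simulated counts with counting error alone and the scaling given. That run cannot bear on the TMM scaling, repeated reads of a molecule or spread between animals. A count of 0 was set to 3 counts, without a ratio where the second count was 3 or less. Exon lengths were unions of GENCODE M21 exons by symbol.

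The factors and 18 further gene lists were chosen with earlier results of these data known. Text genes are the factors, defining markers, close relatives, up to 3 called genes per list and comparison, and the 3 list genes with the nearest pair of log2 ratios; others were named after their values were seen. One gene of a list is not reported here. Alternatives were other scalings, minimum counts and a 1.5-fold threshold.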

Additional observations from a re-analysis of the deposited data

How the results depend on the processing

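Scaling to total counts, DESeq2 size factors and TMM without the lens, retina, endothelial, gland and red cell lists left all 27 ratios of the 9 factors inside their counting intervals, and every count of called factors as given. Scaling to the keratocyte markers moved 13 of the 27 beyond them and raised the median log2 ratio of all genes by 0.66 for excision and 0.58 for PNU-282987 against sham. Under it excision against sham had 2 higher factors (Foxc1 and Pitx1) and 0 lower ones, and PNU-282987 against sham had 0 lower ones. Over all genes it gave 2695 higher and 353 lower in excision against sham, in place of 568 and 777, and 1409 and 256 in PNU-282987 against sham, in place of 366 and 703. A minimum of 100 counts, which removes Pitx1, left 0 factors higher in excision and 0 in PNU-282987 against sham, and 1 higher in PNU-282987 against excision. A 1.5-fold threshold gave 2 higher in excision against sham (with Foxc1) and 2 lower in PNU-282987 against sham (with Twist1). Dropping the minimum changed no count. No paired analysis was possible because each group had 1 library. Depth limits Foxc2, Zeb2 and Pitx1, whose counts were at most 65 in a library.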

Other observations

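Genes linked in human or mouse to the drainage angle and to disorders of the anterior segment were lower in part. Of 8 measured, excision against sham had 3 lower and 1 higher (median log2 ratio -0.26), 2 were lower in PNU-282987 than in sham (-0.67) and 2 were lower in PNU-282987 than in excision (-0.15). Myoc, the myocilin gene of the trabecular meshwork, had 37 counts in PNU-282987, 118 in excision and 25 in sham. Col4a2, a basement membrane collagen gene, had 641, 338 and 1311 counts, and Pxdn, the gene of a peroxidase that crosslinks collagen IV, had 13, 44 and 63.

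Foxc1 and Foxc2 are known for vessel and lymphatic development, and vascular and lymphatic markers were at low levels, at 5.74, 8.51 and 6.55 summed CPM in PNU-282987, excision and sham. Of 7 measured, excision against sham had 3 higher and 1 lower (median log2 ratio 0.995), and 4 were lower and none higher in PNU-282987 than in excision (-1.76). Flt4, the receptor gene of lymphatic growth factor, had 8 counts in PNU-282987, 54 in excision and 15 in sham, and Lyve1, which marks lymphatic vessels and some macrophages, had 1, 23 and 2. Kdr, a receptor gene of blood vessel growth factor, had 55 counts in excision and 144 in sham. The immune cell markers given above were also highest in excision, and the part of immune cells in these counts was not tested.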
